A study of Mus musculus with 4 samples.

Results

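The genes described here are 40 genes of endoplasmic reticulum (ER) stress and of the integrated stress response (ISR), listed by symbol and compared between MEL cells and ES-EP cells. All 40 matched a single gene symbol in the array's probe-to-gene table, out of 19938 genes with such a probe set, and each was read from its brightest probe set over the 4 arrays. MEL cells are a mouse erythroleukemia line of transformed red cell precursors, here a clone that stably carries a fusion of Gata-1 with the estrogen receptor. ES-EP are normal erythroid progenitors grown out of mouse embryonic stem cells. Total RNA of 2 proliferating MEL cultures and 2 proliferating ES-EP cultures was hybridized, 1 array per culture (A and B in each group), to Affymetrix Mouse Gene 1.0 ST arrays. The MEL cultures grew in DMEM with fetal bovine serum, glutamine and puromycin. The ES-EP cultures grew in StemPro medium with erythropoietin, IGF-1, dexamethasone, stem cell factor and β-mercaptoethanol, a reducing agent. Cell line and medium changed together, so their parts in any difference below cannot be told apart.

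The ER folds and glycosylates membrane and secreted proteins. When unfolded proteins build up there, the sensors IRE1α, ATF6 and PERK set off the unfolded protein response (UPR), in which ATF6 and spliced XBP1 raise chaperones, folding enzymes and the machinery of ER-associated degradation (ERAD). PERK is also a kinase of the translation factor eIF2α, along with GCN2, PKR and HRI, and phosphorylated eIF2α slows protein synthesis while the factor ATF4 is translated more, which is the ISR. In erythroid cells HRI is known for linking globin synthesis to the supply of heme.

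The genes of the UPR and of the ISR are read through different promoter elements, and examples of both are shown here. They were chosen with the values below known, and a tie between element and direction was not tested. The ER stress response element (ERSE, CCAAT and CCACG with any 9 bases between them) is bound by ATF6 and XBP1 together with NF-Y, and its variant ERSE-II (ATTGG, any base, then CCACG) by the same factors. The C/EBP-ATF response element (CARE, searched as TGATGNAA) is bound by ATF4 and its partners. Both strands were searched in RefSeq promoters of build GRCm38.p6, from 250 bases before to 50 after each start. Such promoters were given for 35 of the 40 genes (39 promoters) and not for Atf6, Ppp1r15b, Derl1, Manf and Hyou1. ERSE stood in the promoters of 7 of the 35 genes, against 0.137% of all 27025 genes (32851 promoters). ERSE-II stood in 1 (0.0444% of all genes) and CARE in 6 (4.51% of all genes). The shorter UPRE core TGACGTG stood in 1, that of Hspa5 (2.22% of all genes). The 40 genes were listed as genes of these responses, so a larger share among them is not an independent finding. The upstream sequences of 2 genes are printed whole, one for each element, with the fixed letters of the element in capitals. In Hspa5 the ERSE lay at bases -65 to -47 from the start, and in Chac1 the CARE lay at -193 to -186 and reads on the opposite strand.
Hspa5 (chr2:34771840-34772089, + strand): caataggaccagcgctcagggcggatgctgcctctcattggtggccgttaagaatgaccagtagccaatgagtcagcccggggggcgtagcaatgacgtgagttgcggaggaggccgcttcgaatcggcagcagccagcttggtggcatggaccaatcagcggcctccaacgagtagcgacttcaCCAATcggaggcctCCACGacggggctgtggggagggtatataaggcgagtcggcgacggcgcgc
Chac1 (chr2:119350992-119351241, + strand): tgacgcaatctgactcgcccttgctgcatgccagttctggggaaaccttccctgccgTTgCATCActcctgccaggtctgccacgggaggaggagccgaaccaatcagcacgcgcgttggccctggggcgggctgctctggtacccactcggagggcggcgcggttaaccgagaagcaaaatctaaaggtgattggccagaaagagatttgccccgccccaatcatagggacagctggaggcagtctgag

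The other ERSE-bearing members are given as short windows, each on the strand that carries the element, again with the fixed letters in capitals. Hsp90b1 held ERSE at 2 places, on opposite strands, and only the one nearer the start is printed.
Hsp90b1 (chr10:86705528-86705556, + strand): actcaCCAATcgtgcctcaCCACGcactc
Pdia6 (chr12:17266486-17266514, + strand): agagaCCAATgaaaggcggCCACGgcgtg
Creld2 (chr15:88819515-88819543, - strand): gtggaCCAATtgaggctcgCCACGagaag
Syvn1 (chr19:6046527-6046555, + strand): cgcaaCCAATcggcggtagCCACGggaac
Canx (chr11:50325795-50325823, - strand): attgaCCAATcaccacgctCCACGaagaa
Derl3 (chr10:75893237-75893265, - strand): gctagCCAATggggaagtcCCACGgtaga
Herpud1, ERSE-II (chr8:94386369-94386395, + strand): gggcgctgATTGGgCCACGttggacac

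The remaining CARE-bearing members are printed in the same way. Of these, Trib3 carried the element 15 to 22 bases after the start, the others before it, and Herpud1 was the only member to hold both a CARE and an element of the ERSE kind.
Asns (chr6:7693216-7693241, - strand): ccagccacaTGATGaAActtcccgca
Atf3 (chr1:191183427-191183452, + strand): cggacttggTGATGcAAgtgcgagaa
Trib3 (chr2:152344030-152344055, + strand): ccgcccggcTGATGtAAacctgagct
Vldlr (chr19:27216811-27216836, - strand): taggagcgcTGATGcAActattgctg
Herpud1 (chr8:94386308-94386333, - strand): ggtgcgggcTGATGcAAcccgccgtg

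The values are log2 RMA signals, so a difference of 1 is 2-fold, and they are not comparable between probe sets of different genes. A gene is called where its difference (MEL minus ES-EP) passed limma's test at an adjusted p of 0.05, taken over all 19938 genes. Calls were common: 63.8% of all genes were called, 20.5% higher and 43.2% lower in MEL, and the median of all genes was -0.15. After quantile normalization, median centring or cyclic loess that median was -0.03, -0.01 and -0.00, with 5344, 5757 and 5676 genes called higher and 5974, 5644 and 5460 lower, against 4096 and 8622 before. Olfactory receptor genes, which erythroid cells do not need, mark the level of background. The 95th percentile of these 1027 genes was 5.19 in MEL and 5.56 in ES-EP. The background genes were themselves called in 502 cases, 461 of which were lower in MEL, with a median of -0.20, so a small lower call alone does not show lower expression. Replicate arrays correlated at r = 0.998 in each line, over genes, which are not independent replicates. The study's methods call the arrays biological replicates, and the labels do not say how the cultures were separated. The p-values thus rest on the spread between these cultures and on variance borrowed from other genes on the same arrays, and on no wider spread. In each gene limma draws the variance toward that of all genes (2 residual and 8.20 prior degrees of freedom).

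Both lines carried erythroid transcripts, but not to the same extent. Of 11 measured erythroid markers 8 were lower and 2 higher in MEL, and Slc4a1, Epb42 and Alas2 were furthest apart. Their summed signals were 13.93 and 13.87 on the log2 scale in MEL against 14.50 and 14.58 in ES-EP. The 2 higher ones were Gata1 (12.36 in MEL, 11.22 in ES-EP) and Nfe2 (1.16-fold). The MEL clone carries a Gata-1 fusion, and whether the Gata1 signal, and with it the sum, includes that fusion was not tested. In RNA of whole cultures, fewer cells with a transcript and less of it per cell cannot be told apart. Among 12 mast cell markers 9 were lower and 1 higher in MEL (sums of 12.24 and 12.26 for MEL, 13.35 and 13.34 for ES-EP), led by Ms4a2, Kit and Gata2. Of the 12, Fcer1a, Cpa3, Tpsab1, Mcpt4, Cma1 and Mrgprb1 did not exceed the olfactory level in either line. Ms4a2 was at background in MEL and read 11.05 on average in ES-EP. Hdc (7.31 in MEL, 9.28 in ES-EP), Tpsb2 (5.32 in MEL, 5.74 in ES-EP), Gata2, Kit and Srgn exceeded that level in both lines. All 5 measured megakaryocyte markers were called higher in MEL (10.71 and 10.64, against 8.93 and 9.01 in ES-EP), led by Pf4 and Itga2b, and Ppbp among them was at background in both lines. Of 6 plasma cell markers, taken because those cells run a strong UPR, 4 were at background in both lines, Jchain and Prdm1 among them, while Sdc1 was called higher in MEL and Irf4, at background, lower (sums of 8.76 and 8.60 for MEL, 8.35 and 8.46 for ES-EP). Of 10 macrophage and granulocyte markers 8 were at background in both lines, and 1, Prtn3, was called higher in MEL and 3 lower, Csf1r and Cd14 among them (sums of 8.44 and 8.41 for MEL, 8.19 and 8.17 for ES-EP). Of 7 embryonic stem cell markers 6 were at background in both lines, Pou5f1 among them (sums of 7.45 and 7.41 for MEL, 7.83 and 7.78 for ES-EP). On the deposited scale 5 were called lower in MEL and 0 higher, against 2, 3 and 2 lower and 1 higher after the rescalings. Nanog, the marker above background, was 5.38 in MEL and 5.77 in ES-EP (limma adjusted p = 0.00367). The part of any of these in the results below was not tested.

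Of the 40 genes 30 were called (75%, against 63.8% of all genes), 16 higher in MEL and 14 lower. The share called higher was 40%, against 20.5% of all genes, and the share called lower 35%, against 43.2%. Of the 40 genes 39 lay above the olfactory level in at least 1 line, as did 13117 of all genes, of which 28.7% were called higher and 40.0% lower. Calls of at least 1.5-fold were made for 19 of the 40, against 24.3% of all genes, of which 10 were higher in MEL (25%, against 10.6% of all genes) and 9 lower (22.5%, against 13.6%). Of at least 2-fold were Xbp1, Pdia6, Creld2 and Pdia4, higher in MEL (4 of 40, against 5.72% of all genes), and Ppp1r15a and Dnajb9, lower (2 of 40, against 4.27%). Among the 13117 genes above the olfactory level these shares were larger, 15.7% and 15.5% for calls of at least 1.5-fold higher and lower and 8.61% and 6.16% for calls of at least 2-fold, so that the members' 2-fold counts were near them. In 36 of the 40 genes both MEL arrays lay on 1 side of both ES-EP arrays, as they did in 81.8% of all genes. The median difference of the 40 genes was 0.02, against -0.15 for all genes, and single genes ran from -1.76 (Ppp1r15a) to 1.31 (Xbp1). All 19 genes of at least 1.5-fold were still called whichever array was left out.

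**Figure D1:**
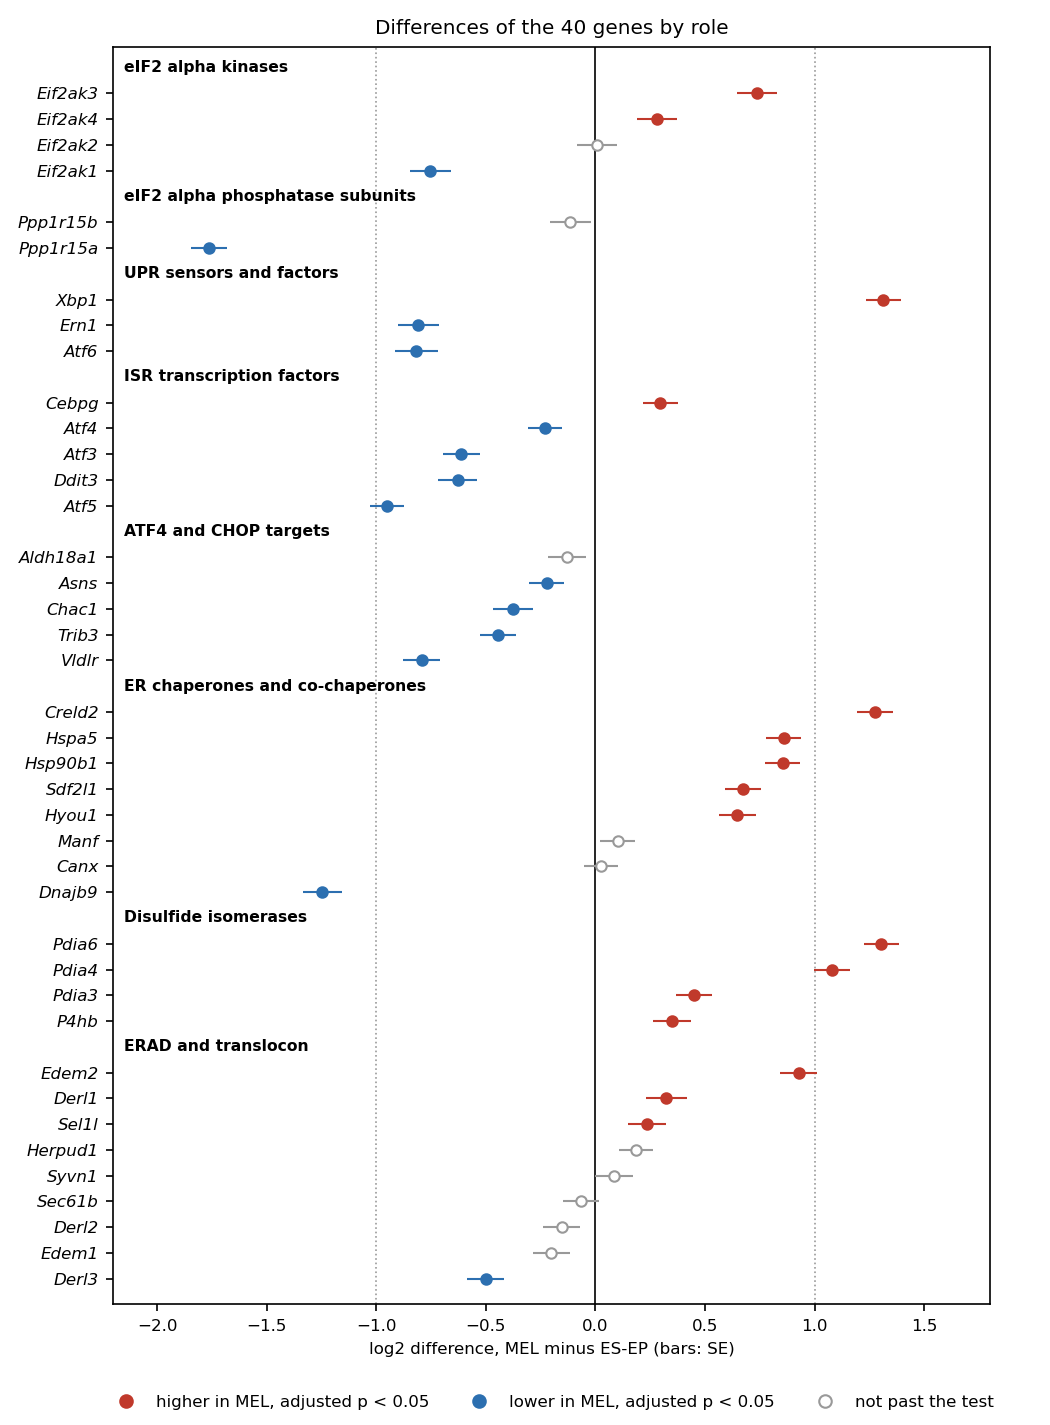
Log2 difference (MEL minus ES-EP, x axis) of each of the 40 genes, grouped by role, with the standard error as a bar; filled red and blue points passed the limma test as higher and lower in MEL, open points did not, and dotted lines mark 2-fold. Chaperones and disulfide isomerases lie mostly to the right, with Dnajb9 at -1.25 as the only one below 0, and ISR factors and targets mostly to the left, with Cebpg at 0.30.

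By role, the folding genes were called mostly higher in MEL and the ISR genes mostly lower. On the deposited scale 20.5% of all genes were called higher and 43.2% lower, so a lower call was the more common kind. Of the 12 ER chaperones, co-chaperones and disulfide isomerases 9 were higher in MEL and 1 lower (median 0.66). Of the 10 ISR factors and their targets 8 were called lower, Vldlr at background among them, and 1 higher (median -0.41), a count of lower calls that was 6 under each of the 3 rescalings, where Atf4 and Asns were no longer called. The 9 kinases, phosphatase subunits and sensors gave 3 calls higher and 4 lower, and the 9 ERAD and translocon genes 3 higher and 1 lower. These groups were drawn up by role, with earlier results of these data known, and no test between them was made.

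Among the 3 UPR sensors and factors, the effector Xbp1 was higher in MEL while the sensors Ern1 and Atf6 were lower. The remaining sensor, PERK (Eif2ak3), is listed with the kinases below and was higher in MEL, so the sensors did not share a direction. Xbp1, the factor that IRE1α activates by splicing its messenger RNA, read 9.80 and 9.87 in the MEL arrays, against 8.50 and 8.53 in the ES-EP arrays (2.49-fold higher in MEL, adjusted p = 2.06e-07). A signal summed over the transcript does not separate spliced from unspliced Xbp1 RNA, so splicing was not measured. Ern1, which encodes IRE1α, read 6.66 and 6.80 in MEL, against 7.44 and 7.63 in ES-EP (1.75-fold lower in MEL, adjusted p = 3.32e-05). Atf6, the ER membrane factor released by cleavage in the Golgi, read 8.59 and 8.37 in MEL, against 9.21 and 9.38 in ES-EP (1.76-fold lower in MEL, adjusted p = 4.57e-05). In each of the 3 genes the MEL and ES-EP arrays were fully apart, as they were in 81.8% of all genes.

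The 4 eIF2α kinases went separate ways. Eif2ak3, which encodes the ER sensor PERK, read 8.16 and 8.15 in MEL, against 7.31 and 7.52 in ES-EP (1.67-fold higher in MEL, adjusted p = 5.26e-05). Eif2ak1, which encodes the heme-regulated kinase HRI, read 9.36 and 9.31 in MEL, against 9.97 and 10.20 in ES-EP (1.68-fold lower in MEL, adjusted p = 5.44e-05). The ER-regulated and the heme-regulated kinase thus differed in opposite directions, by 0.74 and -0.75 on the deposited scale and by 0.89 and -0.60 with median centring. Eif2ak4 (GCN2, the sensor of uncharged tRNA) read 8.13 and 8.04 in MEL, against 7.70 and 7.90 in ES-EP, a call (1.22-fold higher, adjusted p = 0.0203) that ended without either MEL array or without ES-EP replicate A, where adjusted p reached up to 0.139. Eif2ak2 (PKR, the kinase of double-stranded RNA) read 8.29 and 8.37 in MEL, against 8.23 and 8.42 in ES-EP, and these values overlapped (0.01 ± 0.09, SE, adjusted p = 0.952).

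Phosphorylated eIF2α is reset by a phosphatase with 1 of 2 regulatory subunits, and the inducible one showed the largest difference among the 40 genes. Ppp1r15a, which encodes GADD34 and is itself a target of ATF4 and CHOP, read 7.60 and 7.62 in MEL, against 9.33 and 9.42 in ES-EP (3.39-fold lower in MEL, adjusted p = 2.04e-08). Ppp1r15b, the constitutive subunit CReP, read 9.87 and 9.82 in MEL, against 9.85 and 10.07 in ES-EP, and was not called (-0.12 ± 0.09, adjusted p = 0.301). Its dimmer probe set, which rests on a different transcript record, was 6.32 in MEL and 6.82 in ES-EP on average and passed the test over all named probe sets (-0.50 ± 0.10, adjusted p = 0.00176).

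Of the 5 ISR transcription factors 4 were called lower in MEL on the deposited scale, beside 43.2% of all genes, and 3 under each rescaling. ATF4 itself is set mainly by translation, which arrays do not see, and its RNA differed little: Atf4 read 10.09 and 10.07 in MEL, against 10.33 and 10.30 in ES-EP (1.17-fold lower, adjusted p = 0.0255), a call that ended whichever array was left out (adjusted p of 0.0501 to 0.108). Atf5, a related factor controlled in the same way, read 8.20 and 8.18 in MEL, against 9.13 and 9.15 in ES-EP (1.93-fold lower in MEL, adjusted p = 2.46e-06). Ddit3, which encodes the death-linked factor CHOP, read 7.68 and 7.58 in MEL, against 8.34 and 8.17 in ES-EP (1.55-fold lower in MEL, adjusted p = 0.000153). Atf3, an early stress-induced member of the family, read 6.59 and 6.68 in MEL, against 7.20 and 7.30 in ES-EP (1.53-fold lower in MEL, adjusted p = 0.000111). For these last 3 factors the call stood whichever array was left out. Their groups did not overlap, as in 81.8% of all genes. Cebpg, a dimerization partner of ATF4, was the exception at 1.23-fold higher in MEL (adjusted p = 0.00795, or 0.0517 without MEL replicate B).

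Of the 5 targets of ATF4 and CHOP 4 were called lower in MEL on the deposited scale, beside 43.2% of all genes. Under each rescaling 3 of these calls stood, that of Vldlr, which lay at background, included. The pseudokinase gene Trib3 was 1.36-fold lower in MEL and stayed called whichever array was left out. Chac1, whose product degrades glutathione, was 1.30-fold lower in MEL (adjusted p = 0.00434, or 0.0603 without MEL replicate B). Asns, the asparagine synthetase and a classic readout of amino acid shortage, was 1.17-fold lower (12.63 in MEL, 12.85 in ES-EP, adjusted p = 0.0313), a call that ended under each rescaling and without any 1 array. Aldh18a1, of proline synthesis, was not called (-0.13 ± 0.09, adjusted p = 0.209). Vldlr, a lipoprotein receptor gene induced in ER stress, read 4.49 and 4.41 in MEL, against 5.30 and 5.19 in ES-EP, values that did not exceed the olfactory level in either line, so that no direction is given for it. It was the only one of the 40 genes at that level in both lines.

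**Figure D2:**
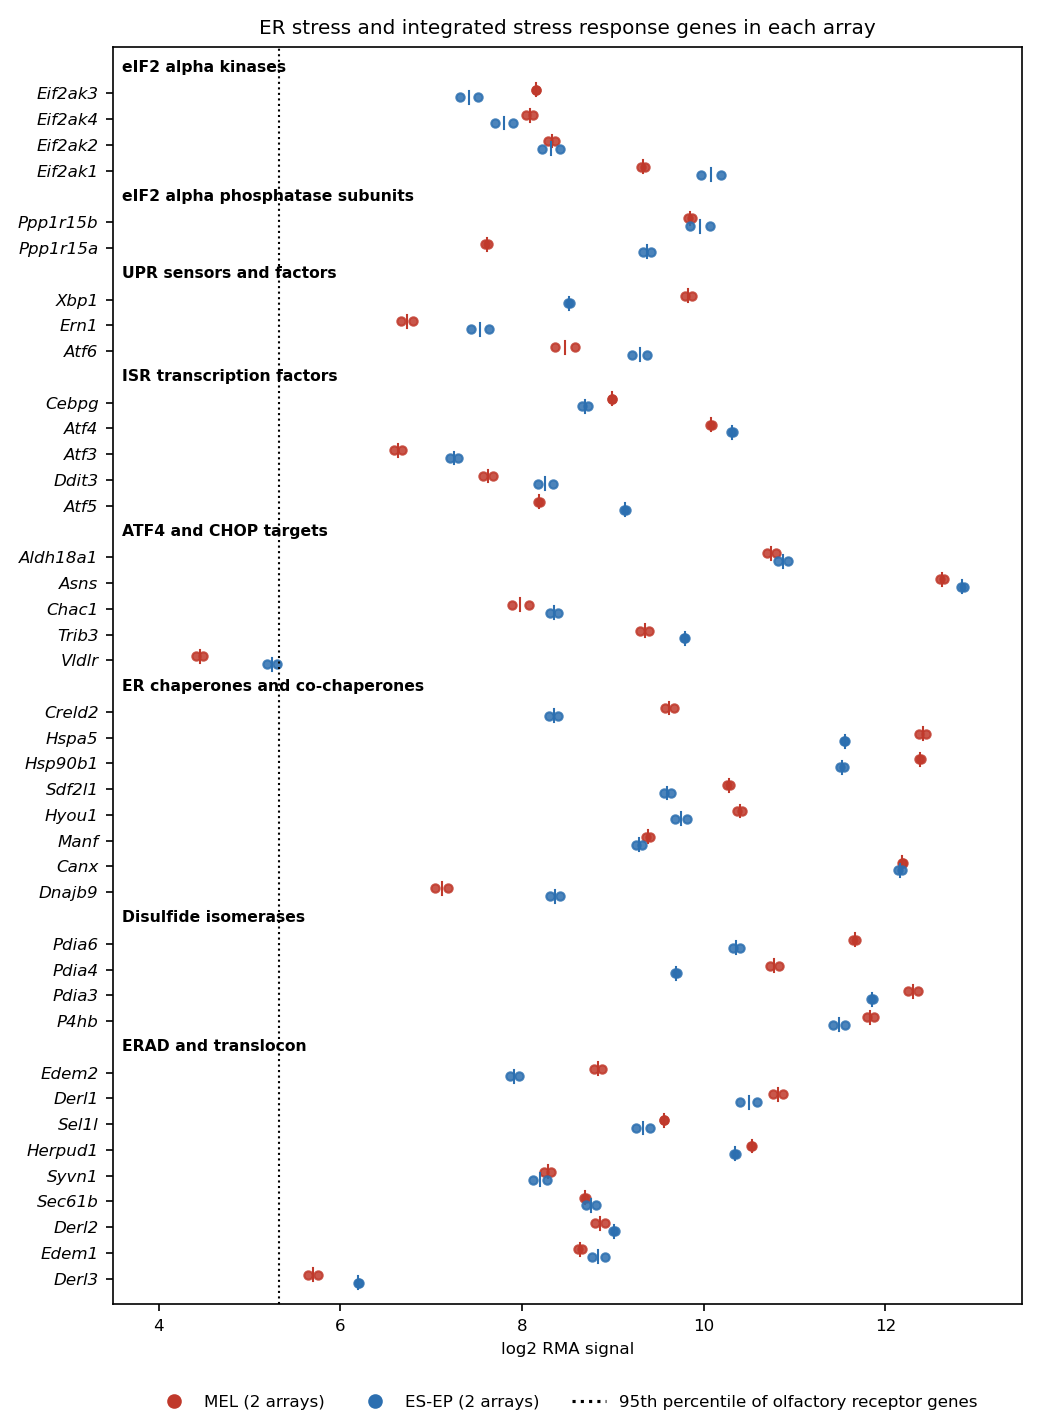
Log2 RMA signal (x axis) of the 40 genes in each array, grouped by role, red for MEL (above) and blue for ES-EP (below); points are single arrays, short bars their means, and a dotted line marks the olfactory level (95th percentile). Replicate points lie close together, and the groups are fully apart for Ppp1r15a (7.60 and 7.62 in MEL, 9.33 and 9.42 in ES-EP), whereas for Canx and Eif2ak2 they overlap. The groups were fully apart in 81.8% of all genes.

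The ER chaperones were largely higher in MEL. Hspa5, which encodes BiP, the central Hsp70 of the ER lumen, read 12.45 and 12.37 in MEL, against 11.55 and 11.55 in ES-EP (1.81-fold higher in MEL, adjusted p = 6.44e-06). Hsp90b1, which encodes GRP94, the ER form of Hsp90, read 12.37 and 12.39 in MEL, against 11.50 and 11.55 in ES-EP (1.81-fold higher, adjusted p = 6.13e-06). These lumenal partners thus differed by equal folds. Hyou1, whose product exchanges nucleotide on BiP, read 10.42 and 10.37 in MEL, against 9.68 and 9.81 in ES-EP (1.57-fold higher, adjusted p = 7.95e-05). Sdf2l1, which acts with ER J-proteins, read 10.29 and 10.26 in MEL, against 9.56 and 9.64 in ES-EP (1.59-fold higher, adjusted p = 4.39e-05). The largest difference in the group was that of Creld2, a small ER stress-induced protein, which read 9.58 and 9.67 in MEL, against 8.30 and 8.40 in ES-EP (2.42-fold higher, adjusted p = 3.73e-07).

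The remaining 3 chaperone genes did not move with them. Dnajb9, which encodes the J-protein ERdj4, a partner of BiP that also holds IRE1α inactive, read 7.04 and 7.19 in MEL, against 8.30 and 8.42 in ES-EP (2.37-fold lower in MEL, adjusted p = 7.57e-07). Canx, the membrane-bound lectin chaperone calnexin, overlapped between the lines (12.19 in MEL and 12.16 in ES-EP on average, difference 0.03 ± 0.08). Manf, a secreted and ER-retained factor, was not called on the deposited scale (0.10 ± 0.08, adjusted p = 0.287) and was called higher in MEL with median centring (0.25).

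All 4 disulfide isomerases, which form and rearrange disulfide bonds, were higher in MEL on the deposited scale and under each rescaling. Pdia6 read 11.68 and 11.64 in MEL, against 10.32 and 10.40 in ES-EP (2.47-fold higher, adjusted p = 2.23e-07). Pdia4 read 10.83 and 10.73 in MEL, against 9.69 and 9.70 in ES-EP (2.11-fold higher, adjusted p = 1.19e-06). A second, much dimmer probe set of Pdia4, which rests on a predicted transcript, did not pass the test over all named probe sets (5.77 in MEL and 5.68 in ES-EP, adjusted p = 0.53). The 2 isomerases with a broader role were less apart: Pdia3, the partner of calnexin and calreticulin in glycoprotein folding, was 1.36-fold higher in MEL, and P4hb, the classic protein disulfide isomerase and a subunit of prolyl hydroxylase, 1.27-fold higher. Under a test against a 1.2-fold difference, which called 20 of the 40 genes against 32.1% of all genes, Pdia3 and P4hb lost their calls, and Pdia4 and Pdia6 did not.

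**Figure D3:**
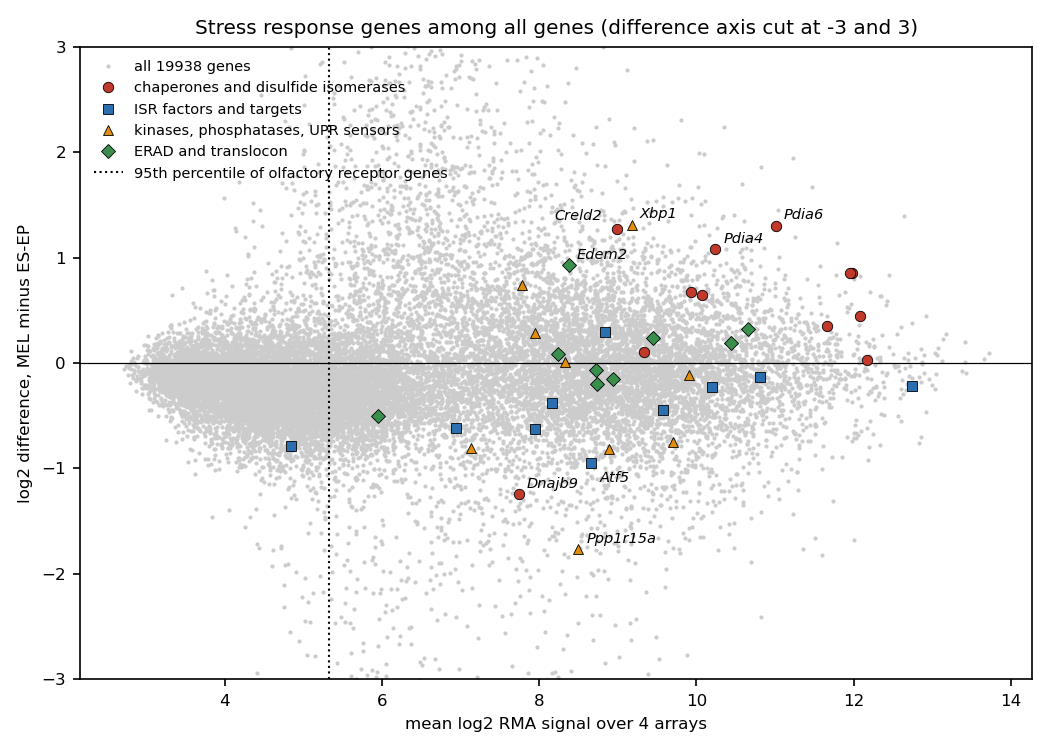
Each grey point is 1 of 19938 genes, placed at its mean log2 signal over 4 arrays (x) and its log2 difference, MEL minus ES-EP (y, cut at -3 and 3); colored symbols are the 40 genes by role, and a dotted line marks the olfactory level. Chaperones and disulfide isomerases (red circles) lie mostly above 0 and ISR factors and targets (blue squares) mostly below, within the range that other genes of similar signal span.

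ERAD ubiquitinates misfolded proteins and moves them out of the ER. Its genes, the translocon subunit included, were called in 4 of 9 cases, beside 63.8% of all genes. Only Edem2, whose product starts the mannose trimming that marks a glycoprotein for disposal, was past 1.5-fold: it read 8.89 and 8.79 in MEL, against 7.86 and 7.96 in ES-EP (1.90-fold higher in MEL, adjusted p = 4.96e-06). Its relative Edem1 was not called (-0.20 ± 0.08, adjusted p = 0.0591). Derl1 of the derlin family was 1.25-fold higher in MEL and Derl3 1.41-fold lower, with Derl2 not called (-0.15 ± 0.08). The Derl3 signals were weak, 5.70 in MEL and 6.20 in ES-EP, not far above the olfactory level. The call of Derl1 ended without MEL replicate A or ES-EP replicate A (adjusted p of up to 0.0991).

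At the core of the ERAD complex, the ubiquitin ligase gene Syvn1 (HRD1) overlapped between the lines (0.08 ± 0.09), and its adaptor Sel1l was 1.18-fold higher in MEL (adjusted p = 0.0338, lost without either MEL array or without ES-EP replicate A). Herpud1, a strongly ER stress-induced scaffold of that complex, missed the threshold on the deposited scale (0.19 ± 0.08, adjusted p = 0.0597) and was called higher in MEL under all 3 rescalings, with differences of 0.25 to 0.33. Sec61b, a subunit of the channel through which proteins enter the ER, was not called (-0.07 ± 0.08). Its 3 probe sets gave differences of -0.07, -0.28 and 0.07 although they rest on the same transcript records, and 1 of them passed the test over all named probe sets (adjusted p = 0.0234).

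Read against the promoter elements printed above, calls higher in MEL were more frequent among the members with an ERSE and calls lower in MEL among those with a CARE, a difference that was not tested. Of the 7 ERSE genes 4 were higher in MEL (Pdia6, Creld2, Hspa5 and Hsp90b1), 1 was lower (Derl3) and Canx and Syvn1 were not called, with a median difference of 0.85. Of the 6 CARE genes 5 were called lower on the deposited scale and Herpud1 was not called, with a median of -0.41. Herpud1, at 0.19 on that scale, was called higher in MEL under all 3 rescalings. The 5 include Vldlr, which lay at background, and Asns, whose call did not hold under rescaling. Genes outside the 40 were counted in the same way. Of 14 measured genes with an ERSE that are not members, 6 were called higher (42.9%) and 3 lower (21.4%), against 21.3% and 43.1% of 15514 genes with a promoter but no ERSE. Of 557 with a CARE, 15.1% were higher and 44.2% lower, against 21.5% and 43.0% of 14971 without one. Among the other pathway genes described below, 14 of the 128 with a promoter had a CARE, of which 4 were higher in MEL and 3 lower. A match of letters is a description and was not tested as a site of binding.

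**Figure D4:**
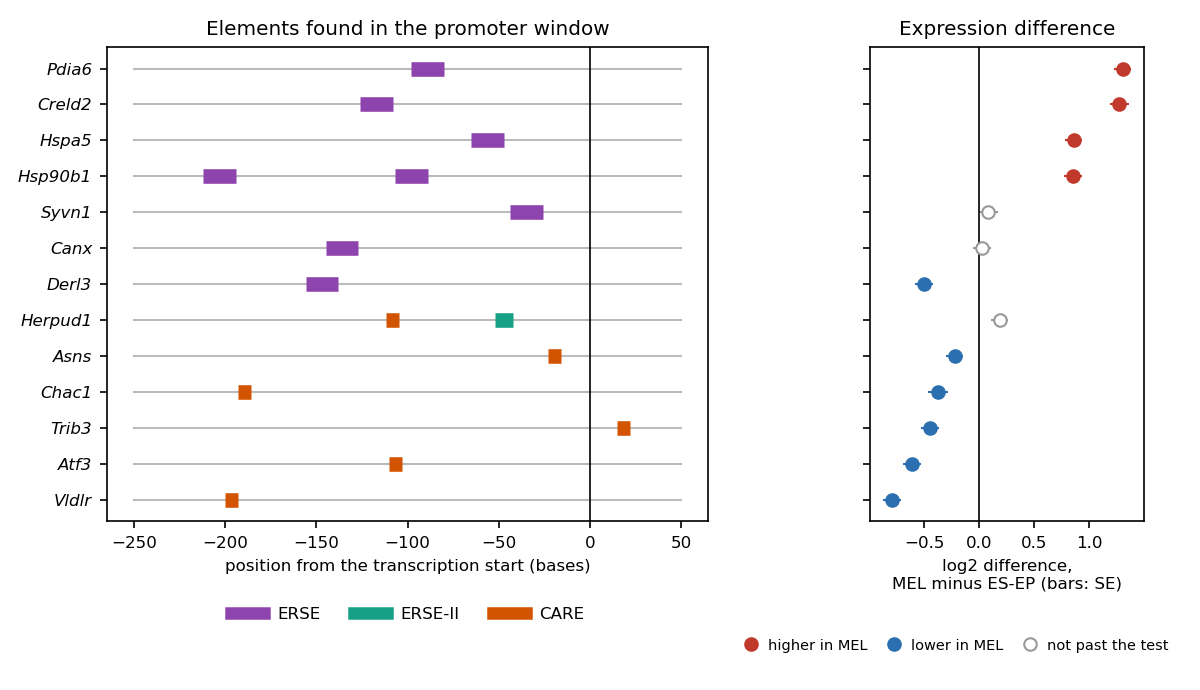
Left, position of each ERSE, ERSE-II and CARE match in the promoter windows of the 13 members that hold one (x axis, bases from the transcription start); right, the log2 difference of the same gene, MEL minus ES-EP, with its standard error, filled where it passed the limma test. The 4 uppermost ERSE genes are higher in MEL, from 0.85 to 1.30, and the 5 genes with a CARE and no ERSE-type element lie below 0.

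Other genes of the same pathways were taken from 8 lists of 172 genes, of which 163 were measured. In all 59 of the 163 were called higher in MEL and 48 lower, beside the 20.5% and 43.2% of all genes, with a median difference of 0.03. The split moved with the scale, to 67 higher and 38 lower with quantile normalization, 74 and 30 with median centring and 69 and 37 with cyclic loess. Of the 28 genes of ER folding and redox chemistry 11 were higher and 7 lower, a count of higher calls that was 15, 16 and 16 after the rescalings. The glucosidase gene Mogs, which trims new glycans, was 2.45-fold and the membrane protein gene Creld1 1.82-fold higher in MEL, while the ER peroxiredoxin gene Prdx4 was 2.26-fold lower. The ERAD list was even, with 7 of 21 higher and 8 lower. Marchf6, an ERAD ubiquitin ligase, and Aup1 were 1.85-fold and 1.73-fold higher in MEL. Ngly1, which encodes a deglycosylating enzyme, was 1.69-fold lower.

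Of these 8 lists, that of ER to Golgi traffic had the fewest calls against its main direction: 12 of 19 were higher in MEL and 1, the KDEL receptor gene Kdelr1, was lower. Kdelr3, a receptor that returns ER residents from the Golgi, read 9.05 and 8.97 in MEL, against 5.02 and 5.18 in ES-EP (15.1-fold). The COPII coat gene Sec24d read 8.57 and 8.55 in MEL, against 5.31 and 5.40 in ES-EP (9.23-fold). Both lay at or below the olfactory level in ES-EP, so the sizes of these folds rest on background. Mcfd2, a cargo receptor subunit, was 1.83-fold higher in MEL. Of 29 genes of translocon, signal peptide cleavage and glycosylation 11 were higher and 6 lower (12 and 4, 13 and 3, and 11 and 5 after the rescalings), led by the channel subunit Sec61a1 (2.13-fold higher in MEL), the oligosaccharyltransferase subunit Rpn1 (1.90-fold higher) and the signal peptidase subunit Spcs3 (a log2 difference of -0.68). Among 13 further UPR factors and their processing genes 4 were higher and 6 lower, and after the rescalings 5 were higher each time and 3, 2 and 2 lower. Creb3l1, an ATF6-like factor of secretory cells, was higher in MEL (7.81 and 7.83, against 5.23 and 5.45 in ES-EP), with ES-EP at background, so that its fold is not exact. The ATF6 homolog Atf6b was 1.72-fold higher in MEL and Creb3 1.45-fold lower.

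On the ISR side the other genes showed no common direction. Of all genes 20.5% were called higher and 43.2% lower. Of 22 ATF4-linked stress and metabolic genes 8 were higher and 9 lower in MEL, and after the rescalings 10 were higher each time and 8, 5 and 8 lower. Cbs, of cysteine synthesis, read 8.18 and 7.97 in MEL, against 6.35 and 6.16 in ES-EP (3.52-fold). Stc2, a secreted glycoprotein, had a log2 difference of 1.59, and Gpt2, a mitochondrial transaminase, one of 0.99. All 3 thus lay opposite to Atf5, Trib3 and Ddit3. Of 18 cytosolic tRNA synthetases 3 were higher and 8 lower, counts near the shares of all genes. Vars, Hars and Cars were furthest apart, at 2.32-fold, 1.57-fold and 1.57-fold lower in MEL. Of 13 genes of eIF2, eIF2B and kinase regulation 3 were higher and 3 lower, against 3 and 2 with quantile normalization, 6 and 1 with median centring and 4 and 1 with cyclic loess. Impact, an inhibitor of GCN2 activation, was 2.16-fold higher in MEL, the eIF2γ subunit gene Eif2s3x 1.47-fold higher and the ribosome recycling factor gene Abce1 1.63-fold lower.

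**Figure D5:**
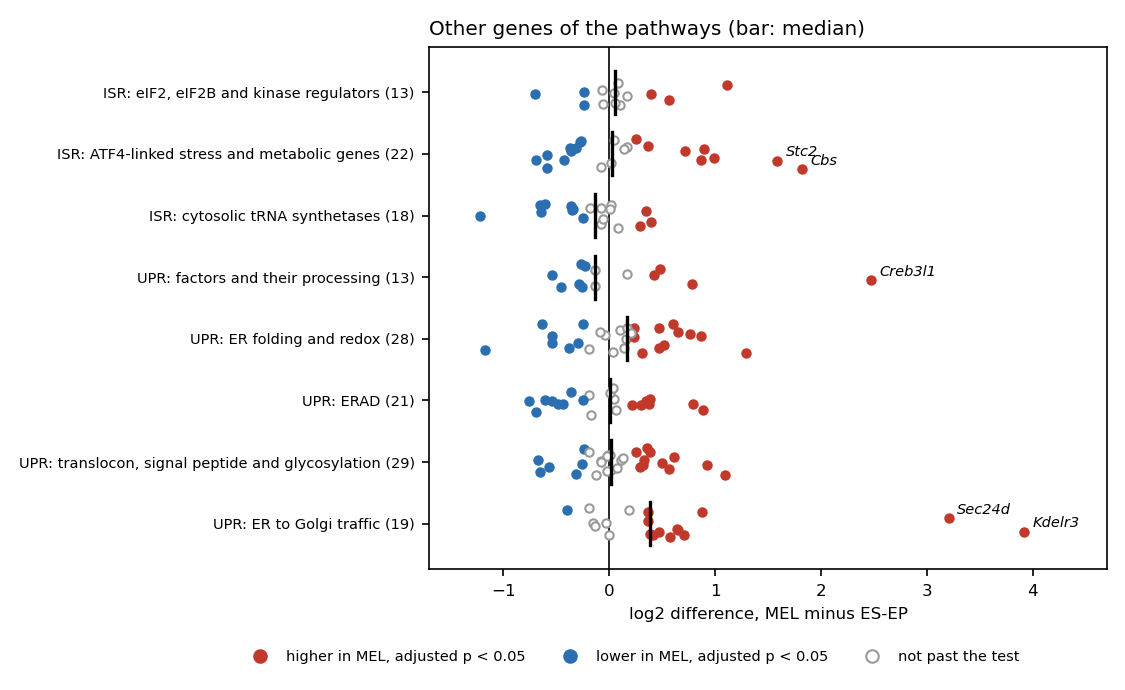
Log2 difference, MEL minus ES-EP (x axis), of each measured gene in the 8 lists of other pathway genes, with the number measured in parentheses; filled red and blue points passed the limma test as higher and lower in MEL, the rest are open, and a black bar marks each median. The traffic list has the highest median (0.39), with Sec24d at 3.21 and Kdelr3 at 3.92, and the tRNA synthetases run from -1.22 to 0.39.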

How the data were processed

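As the study's methods state, the authors normalized Affymetrix Mouse Gene 1.0 ST scans by RMA in GeneSpring GX. The deposited values are log2 signals, 1 column per array and not averaged. The deposited column medians still differed (5.68 and 5.67 in MEL, 5.81 and 5.84 in ES-EP). No detection calls were used, and the number of arrays limits the precision.

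Of 35557 probe sets 21789 had 1 symbol in the platform's gene table, 1621 several and 12147 none here. Only the first kind was used. The brightest probe set of each of 19938 genes was tested, MEL minus ES-EP, two-sided, with limma 3.58.1 in R 4.3.3 (lmFit, eBayes, 2 residual degrees of freedom) and Benjamini-Hochberg adjustment over all genes, with no filter on signal. The steps were tested on simulated data. An exact permutation of 2 against 2 arrays could not pass the threshold. SE is that of the limma difference, and summed marker signals are log2 of summed linear signals. The members, roles, lists, markers and the olfactory level were chosen with earlier results of these data known.

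Values in each array are given for members called at 1.5-fold or more, for the UPR sensors, the kinases, Atf4 and Ddit3. Of each other list up to 3 called genes with the largest differences are named, as are markers. List names were matched by symbol, current name or synonym. Promoters are RefSeq's, build GRCm38.p6. Alternatives were 3 rescalings, 2 signal filters, probe set means, a replicate block, a robust eBayes fit with a trend, adjustment by Holm, leaving out each array and testing against a 1.2-fold difference. Figures were drawn with matplotlib 3.10.9.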

Additional observations from a re-analysis of the deposited data

How the results depend on the processing

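Under the deposited scale and the 3 rescalings 16 members were called higher and 12 lower each time, 7 were never called, and the calls of Asns, Atf4, Herpud1, Manf and Syvn1 changed. The median of the 40 differences was 0.16 with median centring, 0.076 with cyclic loess and 0.055 for genes at or above the median signal, and -0.0032 to 0.057 when 1 array was left out. Holm's adjustment called 2837 genes, 7 members higher and 4 lower, and the test against a 1.2-fold difference 6391 genes, 10 members higher and 10 lower. At or above the median signal 7117 genes were called, fewer genes being tested. Median centring made 9 members 2-fold. With 1 array left out, 13 to 16 members were higher and 11 to 13 lower. Of the 30 calls, 23 stood whichever array was left out, the exceptions being Eif2ak4, Atf4, Cebpg, Asns, Chac1, Sel1l and Derl1. Signs turned for Aldh18a1 (0.019), Ppp1r15b (0.033) and Sec61b (0.082) with median centring and for Eif2ak2 (-0.033 without MEL replicate B and -0.089 without ES-EP replicate A, in a range up to 0.10 with 1 array left out), none of them called. The causes were not tested. The labels do not say whether the letters A and B pair the cultures. The A minus B differences of both lines correlated at r = -0.04 over genes, which does not settle it, as each line gives only 1 such difference. The replicate block called 12709 genes against 12718, with 16 members higher and 14 lower.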

Other observations

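Among genes outside the 40, 14 measured ones carry the full ERSE, and they are mixed in kind. Of these, 6 were called higher in MEL: Calr, the soluble lectin chaperone calreticulin (1.38-fold, adjusted p = 0.00277), Alg12, a mannosyltransferase of glycan assembly (1.29-fold), the ER oxidase gene Ero1b (1.17-fold, adjusted p = 0.0374), Acacb (1.55-fold), Zfp57 and Tdrd9. Zfp57 (6.08 in MEL, 5.37 in ES-EP) and Tdrd9, a germline helicase gene (8.22 in MEL, 5.25 in ES-EP), were at background in ES-EP, so no fold is given for them. The 3 called lower in MEL were Ptgdr2 (-0.45), Spats2l (-0.38) and Acnat2, the last at background in both lines. Dnajc3, a BiP co-chaperone that also inhibits PERK, was among those not called (-0.06 ± 0.08, SE). Of 8 other genes with an ERSE-II, Lgalsl (2.03-fold), Lrif1 (1.28-fold) and Nucb1 (1.24-fold) were higher in MEL and Rcl1 was lower (1.39-fold), while Dnajb11, another BiP co-chaperone, was not called (-0.19 ± 0.08, adjusted p = 0.0532). These genes were named after their values were seen.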
